A study of Homo sapiens with 6 samples.

Results

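The proteasome subunit genes of AC16 cells were compared between cells treated with doxorubicin and cells treated with its vehicle. Members were the protein-coding genes whose symbol is PSMA, PSMB, PSMC, PSMD, PSME or PSMF followed by a number and nothing else. This gave 44 of the 19850 protein-coding genes in the table, which lists 58299 gene IDs in all. PSMC3IP and PSME3IP1, 2 genes that share the prefix but encode other proteins, were left out. AC16 is a human line made by fusing cells of adult ventricular tissue with transformed fibroblasts, so it is only in part of cardiomyocyte origin. One group received 100 nM doxorubicin, an anthracycline that poisons type II topoisomerases, for 48 h, and the other received 0.1% DMSO for the same time. Each group had 3 libraries of poly(A) RNA made without strand information. The series title names NRF2, a transcription factor of the antioxidant response, and protection against doxorubicin. Since no label states that replicate libraries are separate cultures, p-values here reflect the spread between these samples alone, and that spread may be technical.

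The proteasome degrades proteins that carry ubiquitin chains. Its 20S core is a barrel of alpha rings, which form the gate, around beta rings, which hold the proteolytic sites of PSMB5, PSMB6 and PSMB7. Interferon-inducible PSMB8, PSMB9 and PSMB10 replace those 3 subunits in the immunoproteasome, whose cuts favour peptides for MHC class I. The 19S regulatory particle caps the core, binds and removes ubiquitin and unfolds the substrate with a ring of ATPases, while the PSME proteins are alternative caps. When proteasome activity is short, the transcription factor NRF1 (NFE2L1) raises the subunit genes together through antioxidant response elements.

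The 6 libraries held 17252862 to 19571731 counts. Pearson's r across genes was 0.991 to 0.994 within a group and 0.917 to 0.933 between groups. Expression of single genes is given as CPM, the count scaled to the TMM-adjusted library total. Of 10 cardiomyocyte markers, TNNT2 and MYH7 among them, 0 passed the expression filter, and their summed level was 0.312 to 0.391 CPM in DMSO and 0.950 to 1.82 CPM in doxorubicin. The defining markers of heart muscle were therefore at or near 0 in both groups. Summed fibroblast markers were at 15456 to 17744 CPM in DMSO and 5327 to 7909 CPM in doxorubicin, with 6 of 8 called lower. Summed immune markers were at 1.96 to 2.81 CPM in DMSO and 2.96 to 3.47 CPM in doxorubicin, with 0 called. Summed endothelial markers were at 14.5 to 16.6 CPM in DMSO and 9.43 to 10.8 CPM in doxorubicin, with TEK called lower (log2 fold change -0.97) and PECAM1 called higher (1.77). The part of these marker differences in the results below was not tested.

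Most of the standard proteasome was lower after doxorubicin, whereas the immunoproteasome subunits and the activator subunit PSME2 were higher. Of the 42 members that passed the expression filter, 28 were lower and 5 were higher at an adjusted p under 0.05 in edgeR's quasi-likelihood test with Benjamini-Hochberg adjustment over all 15358 genes tested. That is 66.7% lower and 11.9% higher among the members, beside 32.0% lower and 32.7% higher among all genes tested. Called members made up 78.6%, beside 64.7% of all genes. The median log2 fold change of doxorubicin over DMSO was -0.33 over the tested members and -0.0013 over all tested genes. These changes are relative to the other genes, and in bulk RNA fewer cells of a type and less RNA per cell cannot be told apart. The 3 doxorubicin values lay wholly above or wholly below the 3 DMSO values for 35 of the 42 members (83.3%), beside 69.1% of all tested genes. Most of the changes were small. PSMD1 was the single member that fell by at least 2-fold. PSMB9 and PSME2 rose by at least 2-fold, and PSMB8, at a log2 fold change of 0.9994, was just short of it. Of the 9 tested members that were not called, 1 (PSMA6) had an unadjusted p under 0.05. PSMA8, the alpha subunit of the testis, and PSMB11, the beta subunit of the thymic cortex, were not tested. PSMA8 had 0 CPM in each DMSO library and 0.227, 0.106 and 0 CPM in the doxorubicin libraries. PSMB11 was at 0 CPM in 5 libraries and at 0.0528 CPM in doxorubicin replicate 2. Both genes were therefore at the limit of detection in both groups.

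**Figure D1:**
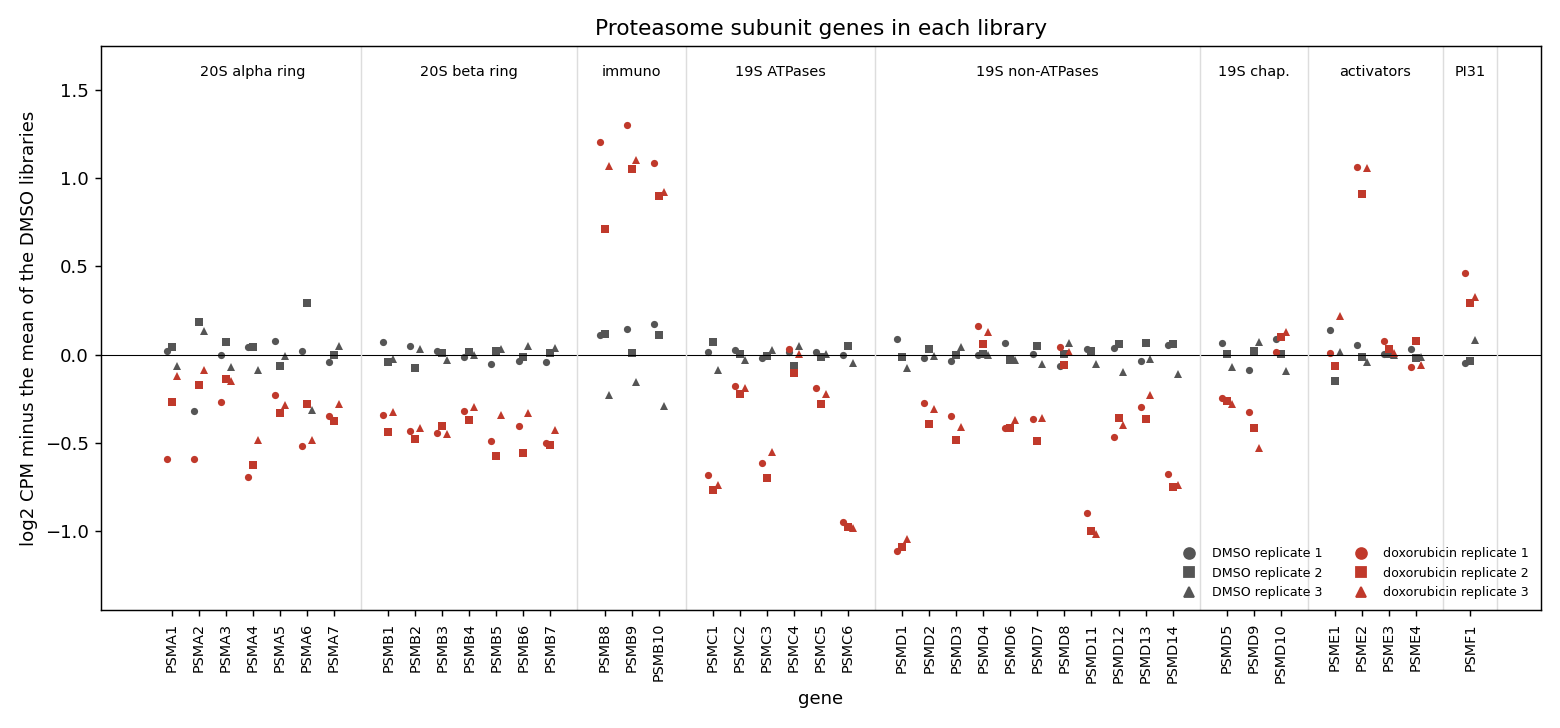
Expression of the 42 tested proteasome subunit genes in each library, as log2 CPM minus the mean of the 3 DMSO libraries (y axis), with genes ordered by subcomplex (x axis). Grey symbols are DMSO and red symbols doxorubicin libraries, and each shape is a replicate. The red symbols lie below 0 for all 7 beta ring genes and above it for PSMB8, PSMB9, PSMB10, PSME2 and PSMF1.

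The immunoproteasome subunits, all 3 of which rose, are described first, because they moved against the subunits that they replace. PSMB8 (chr6:32840717-32844703, GRCh38) and PSMB9 (chr6:32844136-32859585) lie in the MHC region on opposite strands, with overlapping ends in the table's gene models, and PSMB10 lies at chr16:67934502-67937087. PSMB8, which takes the place of PSMB5, was at 40.3, 40.5 and 31.8 CPM in DMSO replicates 1 to 3 and at 86.0, 61.0 and 78.2 CPM in doxorubicin replicates 1 to 3. The groups did not overlap, and the highest DMSO library was well below the lowest doxorubicin library. The mean rose from 37.5 ± 4.99 to 75.1 ± 12.8 CPM (SD, n = 3), at a log2 fold change of 1.00 ± 0.14 (SE; edgeR adjusted p = 1.6e-04).

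PSMB9, the replacement for PSMB6, was at 6.54, 5.94 and 5.30 CPM in DMSO and at 14.5, 12.2 and 12.7 CPM in doxorubicin. Its log2 fold change of 1.15 ± 0.13 (SE; edgeR adjusted p = 1.3e-06) was the highest of all tested members. PSMB10, the replacement for PSMB7, was at 8.16, 7.81 and 5.91 CPM in DMSO and at 15.3, 13.5 and 13.7 CPM in doxorubicin. Its log2 fold change was 0.95 ± 0.14 (SE; edgeR adjusted p = 1.2e-05). Doxorubicin replicate 1 was the highest and doxorubicin replicate 2 the lowest of their group for all 3 genes. DMSO replicate 3 was the lowest of its group for all 3. For PSMB10, doxorubicin replicates 2 and 3 were close, and whether the 3 genes varied together was not tested. Some of their exon bases lie within another gene. The share was 21.2% for PSMB8, all within PSMB8-AS1 on the opposite strand (165 counts over the 6 libraries), and 34.8% for PSMB10, within an unnamed gene on its own strand (263 counts). Reads from the overlapping parts cannot be told apart.

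The constitutive catalytic subunits all fell. PSMB5 (chr14:23016543-23035230), the chymotrypsin-like subunit, was at 135.3, 142.2 and 143.4 CPM in DMSO and at 99.9, 94.2 and 110.5 CPM in doxorubicin. PSMB6 (chr17:4796144-4798503), the caspase-like subunit, was at 186.6, 188.9 and 197.8 CPM in DMSO and at 144.3, 129.7 and 151.9 CPM in doxorubicin. PSMB7 (chr9:124353466-124415444), the trypsin-like subunit, was at 217.8, 225.5 and 230.1 CPM in DMSO and at 158.8, 157.3 and 166.5 CPM in doxorubicin. In each of these genes every doxorubicin library was below every DMSO library. The log2 fold changes were -0.47 ± 0.07 for PSMB5, -0.43 ± 0.07 for PSMB6 and -0.48 ± 0.06 for PSMB7 (SE), with edgeR adjusted p of 1.6e-05, 3.4e-05 and 2.7e-06.

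Within a library, the ratio of an immunoproteasome subunit to the subunit it replaces does not depend on library scaling. Ratios of counts per exon length were used, since the genes differ in length. PSMB8 over PSMB5 was 0.262, 0.250 and 0.195 in DMSO and 0.757, 0.570 and 0.623 in doxorubicin, a 2.76-fold rise of the mean. PSMB9 over PSMB6 was 0.0165, 0.0148 and 0.0126 in DMSO and 0.0475, 0.0445 and 0.0394 in doxorubicin, 2.99-fold higher. PSMB10 over PSMB7 was 0.0361, 0.0334 and 0.0248 in DMSO and 0.0932, 0.0825 and 0.0791 in doxorubicin, 2.70-fold higher. The groups did not overlap in any of the 3 ratios. The exact two-sided permutation test gave p = 0.1 for each ratio, also after adjustment over the 3, which is the smallest p that 3 libraries against 3 can give. The 3 pairs differed in level. In doxorubicin, PSMB8 transcripts reached 65.0% of PSMB5 per length, while PSMB9 reached 4.38% of PSMB6 and PSMB10 reached 8.49% of PSMB7. The corresponding values in DMSO were 23.6%, 1.47% and 3.14%. Unlike the folds, these levels depend on the exon length used. With only exon bases not shared with another gene, doxorubicin means in TPM (a level per length) were 197.0 for PSMB8 and 238.6 for PSMB5. They were 18.9 for PSMB9 and 406.6 for PSMB6, and 48.6 for PSMB10 and 373.5 for PSMB7.

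**Figure D2:**
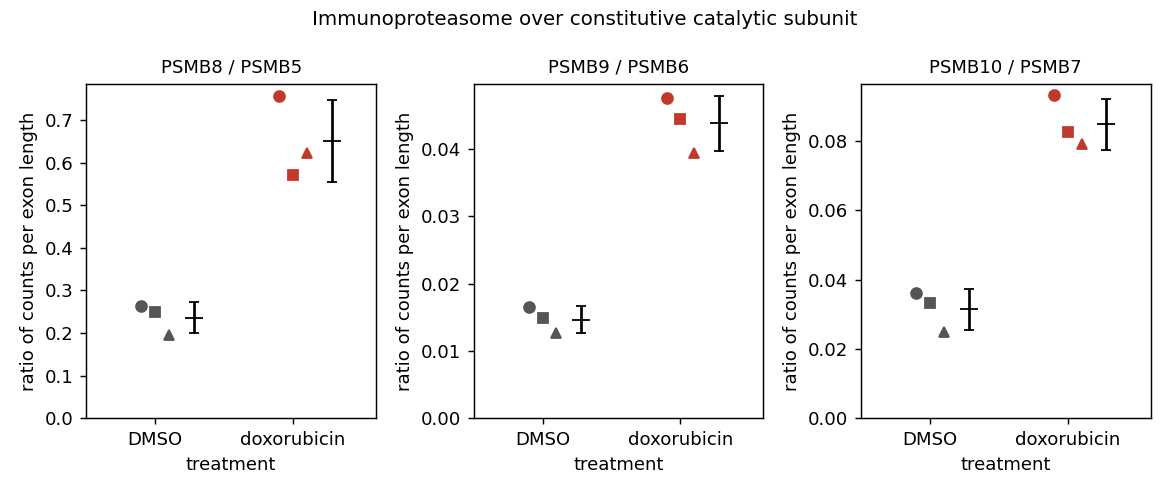
Ratio of counts per exon length of each immunoproteasome subunit over the constitutive subunit it replaces (y axis, linear from 0), in DMSO and doxorubicin libraries (x axis). Each symbol is a library, with one shape per replicate, and the black bars show the mean ± SD (n = 3). All 3 doxorubicin libraries lie above all 3 DMSO libraries in each panel, with means of 0.236 and 0.650 for PSMB8 over PSMB5.

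PSME2 (chr14:24143362-24147570) encodes the beta subunit of PA28, the interferon-inducible cap that opens the core without ATP. It was at 60.2, 57.4 and 56.2 CPM in DMSO and at 121.0, 108.9 and 120.5 CPM in doxorubicin. The groups lay far apart, at a log2 fold change of 1.01 ± 0.07 (SE; edgeR adjusted p = 1.7e-09). PSME1 (chr14:24136158-24138967) encodes the alpha subunit of the same ring and ends 4394 bases from PSME2. It was at 47.4, 38.8 and 43.6 CPM in DMSO and at 43.3, 41.2 and 50.2 CPM in doxorubicin, and the groups overlapped (log2 fold change 0.05 ± 0.09, SE; edgeR adjusted p = 0.63). The 2 transcripts stood at 104.8 TPM (PSME1) and 69.8 TPM (PSME2) in DMSO and at 111.2 and 144.0 TPM in doxorubicin, so that the higher of the 2 means was that of PSME1 in DMSO and that of PSME2 in doxorubicin. TPM is a level per exon length, which allows genes to be compared within a library. The order of the 2 genes depends on that length, since in CPM the mean of PSME2 was above that of PSME1 in both groups. The annotation lists 6 PSME2 pseudogenes, which together had 160 counts over the 6 libraries. One of them, PSME2P1 (chr5:98213402-98214121), had 11, 7 and 8 counts in DMSO and 36, 28 and 28 in doxorubicin, and was called higher (log2 fold change 1.83 ± 0.34, SE; edgeR adjusted p = 1.6e-04). Whether reads of PSME2 were assigned to this copy was not tested.

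Promoter sequences of these genes are shown because 4 of them carry the same 10 letters near the start. RefSeq windows of 300 bases (250 before to 50 after a start, GRCh38.p14) were searched on both strands for an interferon response element (GAAA, any 2 bases, GAAA). In the stretches below, read on the gene's own strand, capitals mark the match, which is on the opposite strand in PSMB8 and PSME1.
PSMB10 (chr16:67936852-67936881, minus strand): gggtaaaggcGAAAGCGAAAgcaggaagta
PSME2 (chr14:24146619-24146648, minus strand): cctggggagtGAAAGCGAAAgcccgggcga
PSMB8 (chr6:32844032-32844061, minus strand): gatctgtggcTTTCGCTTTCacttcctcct
PSME1 (chr14:24136189-24136218, plus strand): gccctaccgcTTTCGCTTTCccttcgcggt
The match began 21 bases before the start in PSMB10 and 28 bases before it in PSME2. It spanned the start in PSMB8 and began 5 bases after the start in PSME1. Read on either strand, the matched letters are the same in all 4 genes, GAAAGCGAAA. These exact letters were in 35 of 35116 promoter windows (0.0997%), and 4 of the 35 are windows of these genes. The letters were picked after the matches were seen, so this share does not measure how unusual it is to share them. The broader motif was in 6 of the 47 windows found for the members (12.8%) and in 1255 of all windows (3.57%). Its other matches were in PSMB4, 68 bases before the start, and PSMA4, 240 bases before it, both of which fell. PSME1, with the same letters as PSME2, was not called. The PSMB9 window had no match, which says only that these letters are not in that window. No printed match overlaps a match to another of the motifs searched. A match is a stretch of letters and shows no binding.

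The 14 genes of the 20S core mostly fell, by small amounts: 12 were called lower, 0 higher and 2 not called, and the median log2 fold change was -0.40. Their summed level per length was 4575, 4490 and 4501 TPM in DMSO and 3529, 3463 and 3598 TPM in doxorubicin. The doxorubicin sums were thus 0.781 times the DMSO sums, and the groups did not overlap. By comparison, the summed immunoproteasome level was 117.3, 112.8 and 87.9 TPM in DMSO and 248.0, 186.5 and 219.4 TPM in doxorubicin, 2.06-fold higher. These sums are over 3 and 14 genes.

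The beta ring was the most uniform list. All 7 of its genes fell, with log2 fold changes between -0.48 and -0.33 and a median of -0.43. The largest decrease was that of PSMB7. The smallest was that of PSMB4 (chr1:151399534-151401944), a structural subunit, which was at 299.8, 305.8 and 302.6 CPM in DMSO and at 242.2, 234.5 and 246.0 CPM in doxorubicin (log2 fold change -0.33 ± 0.06, SE; edgeR adjusted p = 9.5e-05). The remaining beta subunits without a catalytic site, PSMB1, PSMB2 and PSMB3, fell by 0.37, 0.45 and 0.43 on the log2 scale. Per length, the beta ring genes stood close to each other, from 242.5 TPM (PSMB2) to 604.6 TPM (PSMB4) in DMSO, a 2.49-fold range.

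The alpha ring was less uniform, both in level and in change. In all, 5 of its 7 genes fell, and the median over the 7 was -0.31 on the log2 scale. PSMA4 (chr15:78540405-78552419) was at 163.4, 163.0 and 149.2 CPM in DMSO and at 97.8, 102.7 and 113.0 CPM in doxorubicin. Its log2 fold change of -0.60 ± 0.07 (SE; edgeR adjusted p = 1.1e-06) was the lowest of the core. PSMA3 (chr14:58244831-58272012) had the change closest to 0. It was at 60.7, 63.8 and 58.0 CPM in DMSO and at 50.5, 55.3 and 54.8 CPM in doxorubicin, groups that came near to each other without overlap (log2 fold change -0.18 ± 0.07, SE; edgeR adjusted p = 0.031). The call of PSMA3 was lost without DMSO replicate 2, doxorubicin replicate 1 or doxorubicin replicate 3 (adjusted p 0.13, 0.096 and 0.063). PSMA5 and PSMA7 fell by 0.28 and 0.34 on the log2 scale.

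PSMA1, PSMA2 and PSMA6 had far fewer counts than the other core genes and are given in full for that reason, which was seen in the data. PSMA1 (chr11:14504874-14643635) was at 18.2, 18.5 and 17.2 CPM in DMSO and at 11.9, 14.9 and 16.5 CPM in doxorubicin. It was called lower (log2 fold change -0.31 ± 0.12, SE; edgeR adjusted p = 0.027), but not without DMSO replicate 1, DMSO replicate 2 or doxorubicin replicate 1 (adjusted p 0.055, 0.075 and 0.12). PSMA2 (chr7:42916857-42932223) was at 4.19, 5.94 and 5.74 CPM in DMSO and at 3.47, 4.64 and 4.92 CPM in doxorubicin, with overlapping groups (edgeR adjusted p = 0.20). PSMA6 (chr14:35278633-35317493) was at 3.97, 4.79 and 3.15 CPM in DMSO and at 2.73, 3.22 and 2.80 CPM in doxorubicin, also with overlap (edgeR adjusted p = 0.064; 0.022 without DMSO replicate 3). Per length these 3 genes stood at 23.5, 4.26 and 2.63 TPM in DMSO, while PSMA7 stood at 1122 TPM, 426-fold above PSMA6. Alpha subunits are present in equal number in an assembled ring. Of their exon bases, 24.7% in PSMA1, 34.6% in PSMA2 and 14.1% in PSMA6 lie within other genes. Their annotated pseudogenes analysed here had 1, 1 and 5 counts over the 6 libraries. Whether overlap or reads that fit several places lowered these counts was not tested. Without the 3 genes, the median log2 fold change of the core was -0.43.

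**Figure D3:**
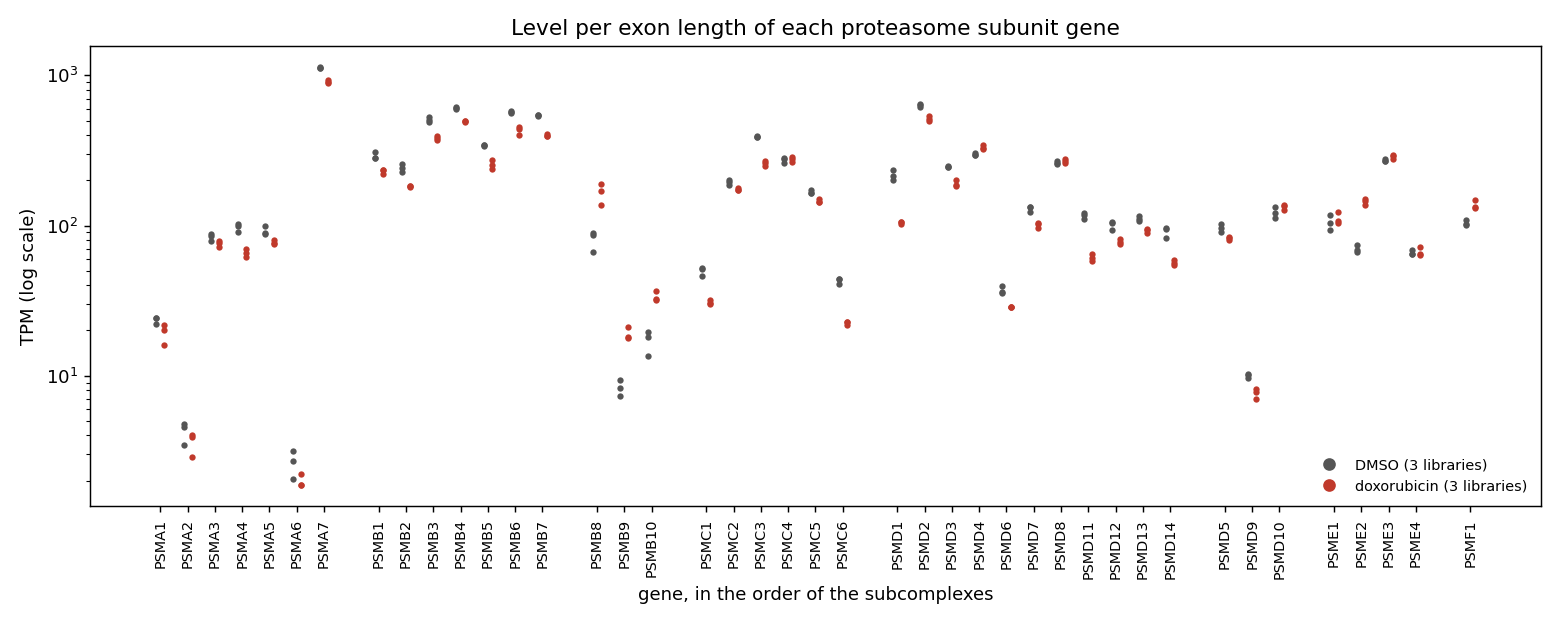
Level per exon length of each of the 42 tested proteasome subunit genes, in TPM on a log axis (y axis), with genes in the order of the subcomplexes (x axis). Grey points are the 3 DMSO libraries and red points the 3 doxorubicin libraries. PSMA2 and PSMA6 lie far below the other core genes in both groups, at 4.26 and 2.63 TPM in DMSO.

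The 19S regulatory particle held the largest decreases among the members. Of its 17 subunits with a PSMC or PSMD name, 14 fell, 0 rose and 3 were not called. Their median log2 fold change was -0.41. The range was wide, from -1.09 for PSMD1 to 0.12 for PSMD4. The summed level per length was 3433, 3362 and 3291 TPM in DMSO and 2817, 2669 and 2732 TPM in doxorubicin, 0.815 times as high, without overlap. Doxorubicin replicate 2 was the lowest library of its group for 12 of the 17 genes. The particle also holds ADRM1 and SEM1, whose names fall outside the rule, so they are not in these values. ADRM1 was called higher (log2 fold change 0.32), though not in every fit, and SEM1 was not called.

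Of the 6 ATPases, which form the unfolding ring, 5 fell. PSMC6 (chr14:52707172-52728587) was at 74.4, 77.0 and 72.1 CPM in DMSO and at 38.6, 37.9 and 37.7 CPM in doxorubicin. The libraries within each group were close, and the log2 fold change was -0.97 ± 0.07 (SE; edgeR adjusted p = 2.9e-09). PSMC4 (chr19:39971005-39981441), a partner in the same ring, was at 153.3, 145.2 and 156.7 CPM in DMSO and at 154.8, 140.9 and 152.1 CPM in doxorubicin, with overlapping groups (log2 fold change -0.02 ± 0.06, SE; edgeR adjusted p = 0.76). The other ATPases lay between. PSMC1 fell by 0.73, PSMC3 by 0.62, PSMC5 by 0.23 and PSMC2 by 0.20 on the log2 scale. For PSMC1, 75.8% of the exon bases overlap NRDE2 on the opposite strand, and its 13 annotated pseudogenes had 200 counts over the 6 libraries, so its value is uncertain. For PSMC5 19.5% overlap FTSJ3, also on the opposite strand.

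Among the 11 non-ATPase subunits with a PSMD name 9 fell. PSMD1 (chr2:231056864-231172827), a large scaffold of the base on which ubiquitin receptors dock, was at 277.6, 258.8 and 247.1 CPM in DMSO and at 120.5, 122.6 and 126.2 CPM in doxorubicin. The level thus fell by 2.12-fold with no overlap, a log2 fold change of -1.09 ± 0.06 (SE; edgeR adjusted p = 3.5e-10). PSMD2, the other large scaffold of the base, fell by only 0.32 on the log2 scale. PSMD4 (chr1:151254703-151267479), a ubiquitin receptor, was at 209.3, 209.8 and 209.3 CPM in DMSO and at 233.9, 218.3 and 228.7 CPM in doxorubicin. Its doxorubicin values were all above its DMSO values, but it was not called (log2 fold change 0.12 ± 0.06, SE; edgeR adjusted p = 0.094). Scaled by library totals alone, PSMD4 was called higher (log2 fold change 0.16, edgeR adjusted p = 0.028). PSMD8, a lid subunit, had a log2 fold change of -0.0002 and was not called.

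The lid removes ubiquitin chains from substrates, and its subunits differed from each other. PSMD11, a scaffold of the lid, fell by 0.97, and PSMD14, the deubiquitinase of the lid, fell by 0.73 on the log2 scale. PSMD3, PSMD12, PSMD7 and PSMD6 fell by 0.42, 0.41, 0.41 and 0.40, and PSMD13 by 0.30. Together with PSMC6 and PSMD1, PSMD11 and PSMD14 were among the members furthest below DMSO, while PSMC4, PSMD4 and PSMD8 were not called. Differences between subunits were not tested. Across the 31 genes of the core and the 19S particle, Spearman's rho between the genomic length of a gene and its log2 fold change was -0.36, and over all 15358 tested genes it was -0.04. This is a description across genes, which share libraries and are not independent replicates.

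Of the 3 members that encode chaperones of the base, which leave before the particle is complete, 2 fell. PAAF1, an assembly factor of the base outside the naming rule, was called higher (log2 fold change 0.71). PSMD5 (chr9:120815496-120842984) was at 103.6, 99.0 and 94.2 CPM in DMSO and at 83.2, 82.3 and 81.4 CPM in doxorubicin (log2 fold change -0.26 ± 0.06, SE; edgeR adjusted p = 0.0016). PSMD9 (chr12:121888731-121918297) was at 19.1, 20.6 and 21.3 CPM in DMSO and at 16.2, 15.3 and 14.1 CPM in doxorubicin (log2 fold change -0.42 ± 0.10, SE; edgeR adjusted p = 0.0013). Neither gene's groups overlapped. PSMD10 (chrX:108084207-108091618), also known as gankyrin, was at 74.4, 70.0 and 65.4 CPM in DMSO and at 70.5, 75.0 and 76.4 CPM in doxorubicin. These groups overlapped, and the gene was not called (log2 fold change 0.08 ± 0.07, SE; edgeR adjusted p = 0.32).

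The remaining caps, PSME3 and PSME4, were not called, and neither was PSME1. PSME3 (chr17:42824385-42843758), which forms the nuclear PA28 gamma ring, was at 325.7, 325.6 and 324.8 CPM in DMSO and at 343.6, 332.8 and 327.0 CPM in doxorubicin. The doxorubicin values were all higher, by little (log2 fold change 0.04 ± 0.06, SE; edgeR adjusted p = 0.56). PSME4 (chr2:53864067-53970840), which encodes the large single-chain activator PA200, was at 160.6, 155.0 and 155.6 CPM in DMSO and at 149.3, 165.5 and 150.8 CPM in doxorubicin, with overlap (log2 fold change -0.02 ± 0.06, SE; edgeR adjusted p = 0.83). PSMF1 (chr20:1113263-1189415) encodes PI31, a protein that binds the core and inhibits it in vitro. It was at 123.9, 124.7 and 135.2 CPM in DMSO and at 176.1, 156.6 and 160.2 CPM in doxorubicin, and it rose by 1.28-fold (log2 fold change 0.36 ± 0.07, SE; edgeR adjusted p = 1.6e-04). PSMF1 was thus the only member outside the immunoproteasome and PSME2 that was called higher.

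The regulators of proteasome gene expression moved in both directions. In a list of 12 genes of the NRF1 pathway, 6 rose and 6 fell, and the median of their log2 fold changes was 0.05. NFE2L1, which encodes NRF1 itself, was at 398.4, 436.2 and 382.2 CPM in DMSO and at 269.0, 268.2 and 273.8 CPM in doxorubicin, a log2 fold change of -0.59 ± 0.06 (SE; edgeR adjusted p = 5.7e-07). VCP, the ATPase that extracts NRF1 from the endoplasmic reticulum, fell by 0.75, and NGLY1, which removes its glycans, fell by 0.41. DDI2, the protease that cleaves NRF1, rose by 0.68. The small MAF partners of NRF1 and NRF2 all rose, MAFK by 1.51, MAFG by 0.99 and MAFF by 0.98, while NFE2L2, which encodes NRF2, fell by 0.53. All values in this series of genes are on the log2 scale.

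The core of the antioxidant response element, TGACNNNGC, was searched in the same promoter windows because NRF1 acts through it. It was in 13 of the 47 windows of members (27.7%), each from a different gene, and in 13.4% of all windows. Of these 13 genes 8 fell, 2 rose and 3 were not called. Among members with a window, a match was in 33.3% of the 24 that fell and 40% of the 5 that rose. It was in 37.5% of the 8 not called. These groups are small, and whether a match goes with a change was not tested. Examples from genes that fell are shown on the gene's own strand with the match in capitals.
PSMB3 (chr17:38752627-38752655, plus strand): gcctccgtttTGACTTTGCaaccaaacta
PSMA4 (chr15:78540650-78540678, plus strand): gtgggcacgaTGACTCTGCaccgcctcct
PSMD3 (chr17:39980760-39980788, plus strand): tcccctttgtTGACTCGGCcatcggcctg
PSMD12 (chr17:67366724-67366752, minus strand): agacaaaaccTGACGCTGCaggctggagt
PSMD1 (chr2:231056896-231056916, plus strand): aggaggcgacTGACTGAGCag
The matches in PSMB3, PSMA4, PSMD3 and PSMD12 began 104, 126, 37 and 165 bases before the start. The match in PSMD1 began 39 bases after the start. Both members that rose with a match, PSMB9 and PSME2, had it upstream of the start, at 148 and 175 bases. An STAT site, TTCNNNGAA, was in 8 of the members' 47 windows and in 7.66% of all windows, and an NF-Y box, CCAAT, was in 19 of the 47 (40.4%) and in 34.6% of all windows. PSMA7, PSMB1, PSMB6, PSMB7 and PSMD4 had no window in the RefSeq table.

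Genes that work with the immunoproteasome in MHC class I presentation mostly rose, 11 of 13, and their median was 0.50 on the log2 scale. TAP1 (chr6:32845209-32853978), a subunit of the peptide transporter, starts 213 bases from the RefSeq start of PSMB9 and is read from the opposite strand. It was at 45.1, 44.8 and 45.3 CPM in DMSO and at 359.3, 297.6 and 317.9 CPM in doxorubicin, at a log2 fold change of 2.85 ± 0.08 (SE; edgeR adjusted p = 3.8e-14), against 1.15 for PSMB9. The difference between the 2 genes was not tested. The table's model of PSMB9 begins 10056 bases before that RefSeq start and spans TAP1. ERAP2, which trims peptides, rose by 1.40 on the log2 scale. IRF1, an activator of interferon-responsive genes, rose by 1.26. The 2 genes that fell were NLRC5, a transactivator of class I genes (-0.76), and TAPBP, which loads peptides (-0.34). HLA genes resemble each other closely, so their counts are uncertain between copies.

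Factors that build the proteasome were called in both directions, while most ubiquitin receptors, deubiquitinases and ligases of the proteasome fell. Among all genes tested, 32.7% were higher and 32.0% lower. Of 10 assembly factors and subunits without a PSMA to PSMF name, 3 rose and 4 fell (median log2 fold change -0.04), though ADRM1, at 0.32 one of the 3 that rose, was not called without DMSO replicate 1 or 2 (edgeR adjusted p 0.11 and 0.080). PAAF1, which binds the ATPases of the base, rose by 0.71 and IPO9, an importin for the proteasome, fell by 0.55. POMP, the maturation factor of the core, was at 87.9, 86.7 and 89.7 CPM in DMSO and at 84.9, 96.0 and 94.8 CPM in doxorubicin and was not called (edgeR adjusted p = 0.44). It was chosen after its values were seen. Among 13 ubiquitin receptors, deubiquitinases and ligases of the proteasome, 9 fell and 1 rose (median -0.37), with ECPAS and RAD23B lowest at -0.77 and -0.76. The single gene of that list that rose was ZFAND5, at 0.19, which was not called when no filter on low counts was used (edgeR adjusted p = 0.051). Of 6 genes of ubiquitin and its activating enzymes, 2 fell, UBA6 and UBB, with log2 fold changes of -0.37 and -0.25. The call of UBB was lost without doxorubicin replicate 2 or without doxorubicin replicate 3 (edgeR adjusted p 0.063 and 0.072).

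**Figure D4:**
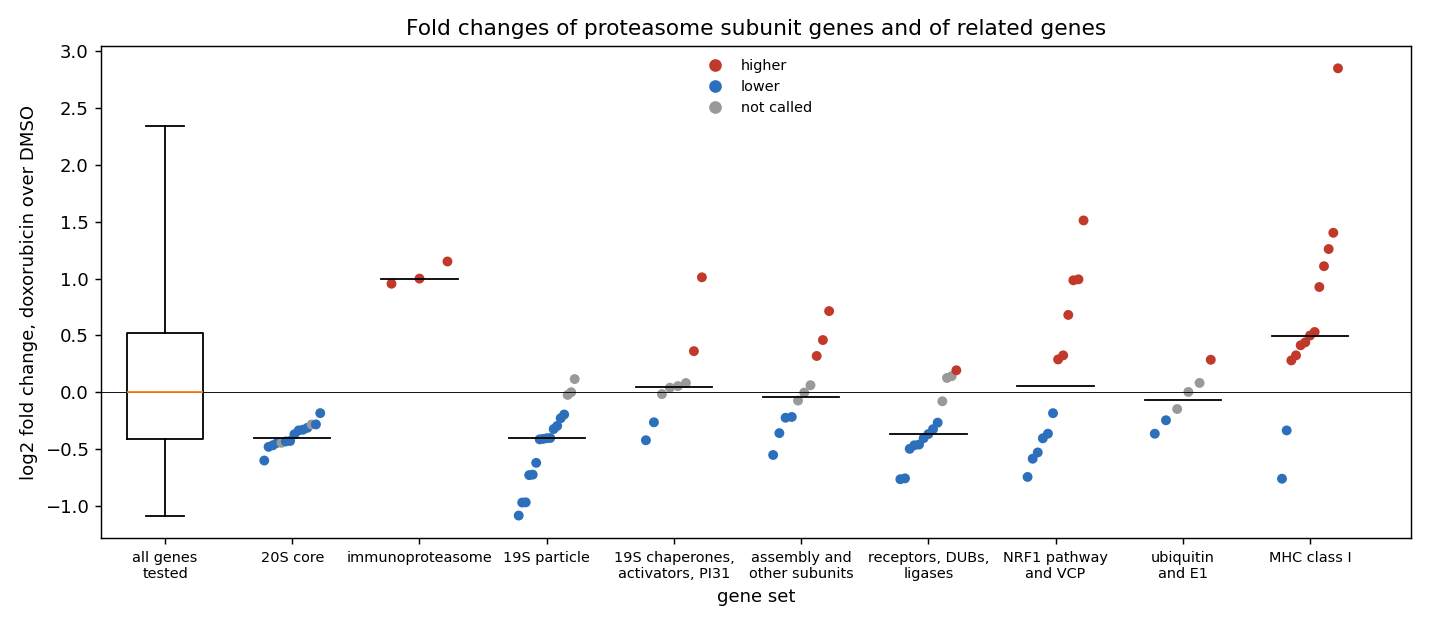
Log2 fold changes of doxorubicin over DMSO (y axis) for the proteasome subcomplexes and related gene lists (x axis), with 1 point per tested gene, red for called higher, blue for called lower and grey for not called. The horizontal bars are list medians, and the box at the left shows all 15358 tested genes (median, quartiles, whiskers to the 5th and 95th percentiles). The medians are -0.40 for the 20S core, 1.00 for the immunoproteasome, -0.41 for the 19S particle and 0.50 for MHC class I genes.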

How the data were processed

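Poly(A) RNA of AC16 cells was sequenced from 3 DMSO and 3 doxorubicin libraries. The authors deposited raw counts per gene beside summed exon lengths, a featureCounts table per its header. Tools named in the submitters' processing notes are featureCounts, Subread, STAR and SAMtools, with GRCh38 as build and no version or setting. How reads in overlapping genes or in several places were counted is not given there, and the labels' protocols describe unstranded libraries. Symbols were found for 57717 of 58299 gene IDs. Types came from GENCODE release 29, which held 58179 of the IDs, and exon positions were those deposited with the counts. There were 0 columns of other samples.

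Counts were tested with edgeR 4.0.16 (R 4.3.3): filterByExpr with a minimum count of 10 and a minimum total of 15, TMM scaling, robust quasi-likelihood F test without covariates, two-sided, with adjustment over 15358 genes and a threshold of 0.05. The SE was taken as the log2 fold change over the root of its F. TPM used summed exon lengths of all genes. The ratios were tested by exact permutation over the 6 libraries. Pairs of libraries within a group differed by more than sampling noise (chi-square per degree of freedom 2.82 to 9.39), so each counted as 1 replicate. Replicate numbers did not pair the samples. Promoters are RefSeq windows (GRCh38.p14), found for 39 of 44 members, and gene coordinates are those of the table, 1-based.

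The members and lists were chosen with earlier results of these data known, and the lists come from textbook knowledge. Named with each library's value are the catalytic subunits, activators, PSMF1, chaperones, tissue-specific subunits, and the highest and lowest fold change of each other subcomplex. From each related list the 2 called genes with the largest change are named, and others named from those lists, as well as PSMA1, PSMA2 and PSMA6, were chosen after their values were seen. From the related lists, a few genes are not reported here. Alternatives were DESeq2 1.42.0, upper-quartile or RLE scaling, library totals, no filter, at least 1 CPM in 3 libraries, the 50 most abundant genes left out, protein-coding genes alone, a replicate block, each library left out, and other length scalings.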

Additional observations from a re-analysis of the deposited data

How the results depend on the processing

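Over 15 alternative fits, the members called lower numbered 26 to 29 (28 as reported) and those called higher 5 or 6. The immunoproteasome count was 3 and the 19S count 14 in each of them, and the 20S core count ranged from 10 to 13. Of 630 single-gene values for the 42 tested members, 619 kept their call and direction, 9 lost the call, 2 gained it and 0 called values reversed. Calls changed in PSMA1, PSMA3, PSMA6 and PSMD4, and with DESeq2 the calls of PSMA1 and PSMA3 were lost (adjusted p 0.059 and 0.062). Scaled by library totals, PSMA3 was also not called (edgeR adjusted p = 0.092). The median log2 fold change of the 19S particle, -0.41 as reported, was -0.36 with library totals and -0.43 with no filter. The summed 20S core level in doxorubicin was 0.762 times that in DMSO with TMM-scaled counts per kilobase (0.781 as reported). With each library left out in turn, the fold of PSMB10 over PSMB7 ranged from 2.44 (without DMSO replicate 3) to 2.92. The immunoproteasome median ranged from 0.89 to 1.13 and the core median from -0.43 to -0.35 in the same fits. Raw count ratios and ratios over unshared exon length give the same folds by construction. Among the 54 related genes, 48 kept their call in every alternative, and none of the 54 reversed. Cause was not tested for any of these changes.

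Same-numbered libraries of the 2 groups deviated together weakly or not at all (r = 0.0515, -0.0231 and 0.0270). With the replicate block, 28 members were lower and 5 higher, as without it, and 5003 genes were higher and 4917 lower in all, beside 5017 and 4917.

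With library totals the median log2 fold change of all genes was 0.04, and with it 5320 genes were higher and 4571 lower. In the windows before the start alone, the interferon element was in 8.51% of the members' windows and 3.02% of all windows. The antioxidant element core was in 23.4% and 10.9%. The interferon element matches of PSMB8 and PSME1 do not lie wholly before the start and were lost. PSMA2 and PSMA6, with 48 to 114 counts in a library, are the least precise members.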
